A study of Mus musculus with 7 samples.

Results

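The comparison described here set 3 libraries of mouse cochlear supporting cells treated with GSK-343 against 2 libraries of the same cells given the solvent DMSO, 5 of the 7 libraries of the series. The members were chosen from the treatment labels, and the genes compared were the 21145 nuclear protein-coding genes longer than 500 bases, of 48709 genes in each deposited table. Of these, 13050 had enough counts to be tested. Whole cochleae from mice on postnatal day 1 were kept in culture in L15 medium with N2, B27, EGF and FGF. They were exposed for 48 h to 10 µM GSK-343 or to DMSO in an equivalent amount. The other 2 libraries were exposed to 200 nM TSA (trichostatin A), which blocks histone deacetylases. The organs were then dissociated with trypsin, GFP-positive supporting cells were sorted, and libraries were made from their RNA with a kit for single-cell inputs. The labels do not name the GFP transgene, the promoter that drives it, the mouse strain or the number of organs per library. They also do not say whether replicates came from separate cultures, so each p-value reflects spread among these samples alone, which may be technical.

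GSK-343 inhibits EZH2, the enzyme of Polycomb repressive complex 2 (PRC2) that methylates lysine 27 of histone H3. That mark keeps developmental genes silent, typically at CpG-rich promoters, and is read by the ring-finger complex PRC1, while the demethylases KDM6A and KDM6B remove it. Supporting cells surround the sensory hair cells of the organ of Corti, are held out of the hair cell fate by Notch signalling, and in newborn mice can still divide or convert to hair cells to a limited degree.

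The libraries of the groups differed in more than the compound. The gene length exceeded the effective length by 49 bases in DMSO (both libraries) and by 209.96 to 212.69 bases with GSK-343, so the reads were quantified in different layouts, whereas TSA (208.21 to 210.24 bases) shares the layout of GSK-343. Total expected counts, the estimated numbers of reads per gene, were 3398893 to 4248336 with GSK-343, against 5124247 and 5974230 in DMSO. The genes compared held 86.0% to 93.2% of these counts with GSK-343, against 62.3% and 63.2% in DMSO. Olfactory receptor genes, which are normally silent outside the nose, had a count in 398 and 672 of 1105 cases in DMSO and in 8 to 11 with GSK-343. 7 genes with satellite-like sequence, Gm10800 among them, took 3.76% and 9.69% of the counts of the restricted genes in DMSO and 0% with GSK-343. The treatment and these properties of the libraries cannot be told apart. The direct comparison of GSK-343 with TSA, which uses the same GSK-343 libraries, is therefore given beside part of the results, not all.

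Over all genes tested, 2322 were higher with GSK-343 than in DMSO (17.8%) and 2568 were lower (19.7%) at a Benjamini-Hochberg adjusted p under 0.05, and 6200 had an unadjusted p under 0.05. Against TSA, 5.72% of the genes were higher and 5.85% lower with GSK-343. With TSA against DMSO, 13.2% were higher and 14.3% lower. These shares are the background for the counts of list members given below. Some lists lay under both shares of GSK-343 against DMSO, among them the S phase genes (8.33% higher, 5.56% lower) and FGF genes (9.09%, 18.2%). Short and GC-rich genes tended to be higher with GSK-343 and long and AT-rich genes lower. The median log2 fold change was 0.57 in the shortest of 5 equal classes of genes and -0.87 in the longest, of which 39.1% were called lower. By GC content, the median ran from -0.87 in the lowest class to 0.56 in the highest. GSK-343 against TSA gave the same order with medians of 0.49 and -0.37 by length and of -0.48 and 0.61 by GC content. When a trend on GC content and length was removed from each library, 2390 genes were higher (18.3%) and 2018 lower (15.5%), and the medians of these classes of length lay between 0.04 and 0.17. Among the 3453 genes tested whose expected counts were whole in every library, 423 were higher (12.3%) and 613 lower (17.8%), 30.0% in all. A test on log2(TPM + 1) with limma put the median of all genes at 0.66 and called 4151 genes higher (31.0%) and 1012 lower (7.55%). Of its calls 80.4% were higher, against 47.5% in the count test, so directions are given relative to the median of all genes. Of the genes called below against DMSO, limma did not call Adgrv1, Cacna2d2, Cenpe, Cfap54, Cldn6, Ebf1, Emx2, Fnip2, Hes1, Ift74, Jag1, Kdm6a, Kdm6b, Lgr5, Mtf2, Pou3f3, Rfx7, Rorb, Rtl1, Slc2a1, Suz12, Tet2, Uty and Yaf2. Kdm6b also lost its call with total count scaling, Suz12 with only the DMSO and GSK-343 libraries fitted, and both with genes longer than 2000 bases or with all genes of the tables. Log2 fold changes, called log2 changes below, are from the counts as deposited, and the value with these trends removed (the trend-removed value) is given where the call was lost or the change fell by more than 1.5 times.

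**Figure D1:**
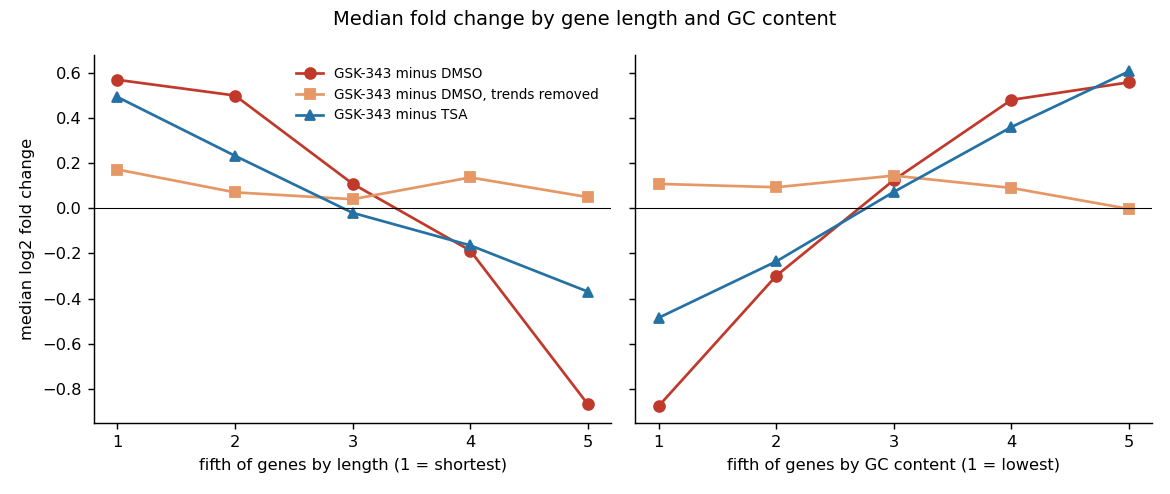
Median log2 fold change of the tested genes (vertical axis) in 5 equal classes by gene length (left) and by GC content (right), for GSK-343 minus DMSO as fitted, the same with the GC and length trends removed, and GSK-343 minus TSA. The fitted medians against DMSO fall from 0.57 to -0.87 with length, and the trend-removed medians stay between -0.0026 and 0.17.

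Among the genes of PRC2 itself, transcripts of the drug's target did not pass the test. Ezh2, the catalytic subunit, stood at 42.5 and 62.7 CPM in DMSO and at 18.7, 28.8 and 28.2 CPM with GSK-343, where the groups did not overlap, as in 30.9% of all genes tested in this direction and 29.1% in the other (log2 change -1.06, SE 0.41, adjusted p = 0.0575). The test was passed with DESeq2 size factors, with DESeq2's own test and with the filter of 50 counts (adjusted p = 0.0477, 0.0435 and 0.0364), and against TSA Ezh2 changed by -1.33 (adjusted p = 0.0521). The compound acts on the enzyme, so the transcript does not measure inhibition, and the level of histone methylation was not measured here. Ezh1, the second PRC2 methyltransferase, was at 53.1 and 79.2 CPM in DMSO and at 52.2, 47.1 and 51.6 CPM with GSK-343. Eed, the subunit that binds the methyl mark, stood at 34 and 62.7 CPM in DMSO and at 63.8, 37.3 and 47.7 CPM with GSK-343. The change was -0.39 (SE 0.35) for Ezh1 and 0.04 (SE 0.40) for Eed, neither past the test (adjusted p = 0.396 and 0.949). Suz12, the scaffold subunit, fell from 154 and 109 to 94.9, 25.1 and 38 CPM (log2 change -1.32, SE 0.47, adjusted p = 0.0401), but its trend-removed value was -0.28 and the call was lost without either DMSO library, GSK-343 replicate 2 or GSK-343 replicate 3 (log2 changes -1.03, -1.53, -1.02 and -1.14). Without GSK-343 replicate 1 the value was -2.06 and passed the test.

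Other genes of the PRC2 list moved both ways. Lcor, the ligand-dependent corepressor whose locus also encodes a PRC2-associated protein, stood at 109 and 78.9 CPM in DMSO and at 11.6, 6.12 and 8.56 CPM with GSK-343 (log2 change -3.42, SE 0.42, adjusted p = 1.23e-04; trend-removed -2.20). It was also below TSA, where it had 37.2 and 46.3 CPM (log2 change -2.25, adjusted p = 0.00918). Mtf2, which recruits PRC2 to DNA, fell from 98.9 and 80.6 to 35.6, 37.3 and 43.9 CPM (log2 change -1.20, adjusted p = 0.0127), with a trend-removed value of -0.40 and no call without DMSO replicate 1 (-1.02). The histone-binding subunit Rbbp7 rose from 52.3 and 53 to 141, 118 and 144 CPM (log2 change 1.35, adjusted p = 0.00661), a call also lost without DMSO replicate 1 (1.36). Its paralogue Rbbp4 stood at 109 and 62.3 CPM in DMSO and at 136, 148 and 201 CPM with GSK-343 (log2 change 0.91, adjusted p = 0.0555). It passed the test with the trends removed (1.58, adjusted p = 0.00609), with total count scaling (0.0415), without a low-count filter (0.0457) and with all genes of the tables (0.0405). It also passed with genes longer than 2000 bases (adjusted p = 0.0179), with DESeq2's test (0.0431), without DMSO replicate 1 (0.0483) and without GSK-343 replicate 1 (0.0295). In all, 1 of 12 tested subunits was higher and 3 were lower, and with the trends removed 2 were higher and 1 was lower. Of these, 1 to 2 were higher and 1 to 4 lower with 1 library left out (2 higher without GSK-343 replicate 1, 1 lower without DMSO replicate 1). Their median log2 change was -0.54, beside 0.0039 for all genes tested.

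The genes of the enzymes that remove the mark, Kdm6a and Kdm6b, were called lower with GSK-343, though not in every setting. Kdm6a stood at 244 and 249.7 CPM in DMSO and at 118, 94.8 and 59.4 CPM with GSK-343 (log2 change -1.44, SE 0.34, adjusted p = 0.00569). Kdm6b, an inducible demethylase, stood at 194 and 264 CPM in DMSO and at 55.7, 111 and 140.4 CPM with GSK-343 (log2 change -1.16, SE 0.42, adjusted p = 0.0456). The Y-linked relative Uty stood at 64.4 and 51.7 CPM in DMSO and at 2.47, 14.7 and 9.13 CPM with GSK-343 (log2 change -2.71, adjusted p = 0.00405). The labels do not give the sexes of the mice. All 3 genes were called lower and none of them differed from TSA at an adjusted p under 0.05. The trend-removed values were -0.22 for Kdm6a (adjusted p = 0.576), -1.25 for Uty (adjusted p = 0.137) and -1.34 for Kdm6b (adjusted p = 0.0104). Kdm6b lost its call without DMSO replicate 1 or 2 or without GSK-343 replicate 1 or 2 (-1.35, -0.90, -0.86 and -1.24).

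Of the 24 genes of PRC1, 6 were higher and 4 lower, with a median of 0.10 that lay at -0.05 relative to all genes once the trends were removed. The risers included chromobox proteins that read the methyl mark. Cbx8 stood at 2.07 and 2.41 CPM in DMSO and at 9.52, 29.4 and 19.7 CPM with GSK-343 (log2 change 3.11, SE 0.76, adjusted p = 0.00677). Cbx6 stood at 58.8 and 76.1 CPM in DMSO and at 271, 211 and 225 CPM with GSK-343 (log2 change 1.80, SE 0.39, adjusted p = 0.00337). Phc2, a polyhomeotic subunit that lets PRC1 assemble into larger bodies, rose from 42.2 and 39.3 to 123, 189 and 171 CPM (log2 change 1.98, adjusted p = 0.00135; trend-removed 1.26). Its relative Phc3 fell from 407 and 281 to 122, 64.3 and 24.5 CPM (log2 change -2.30, adjusted p = 0.00365), with a trend-removed value of -0.59 that did not pass. Yaf2, a subunit of the variant complexes that lack chromobox proteins, fell from 52.9 and 51.7 to 13.1, 13.8 and 16.3 CPM (log2 change -1.86, adjusted p = 0.00548). Of the PRC1 genes, 6 were higher and 3 lower with the trends removed, and 3 to 6 were higher and 3 to 4 lower with 1 library left out (3 higher without DMSO replicate 2).

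**Figure D2:**
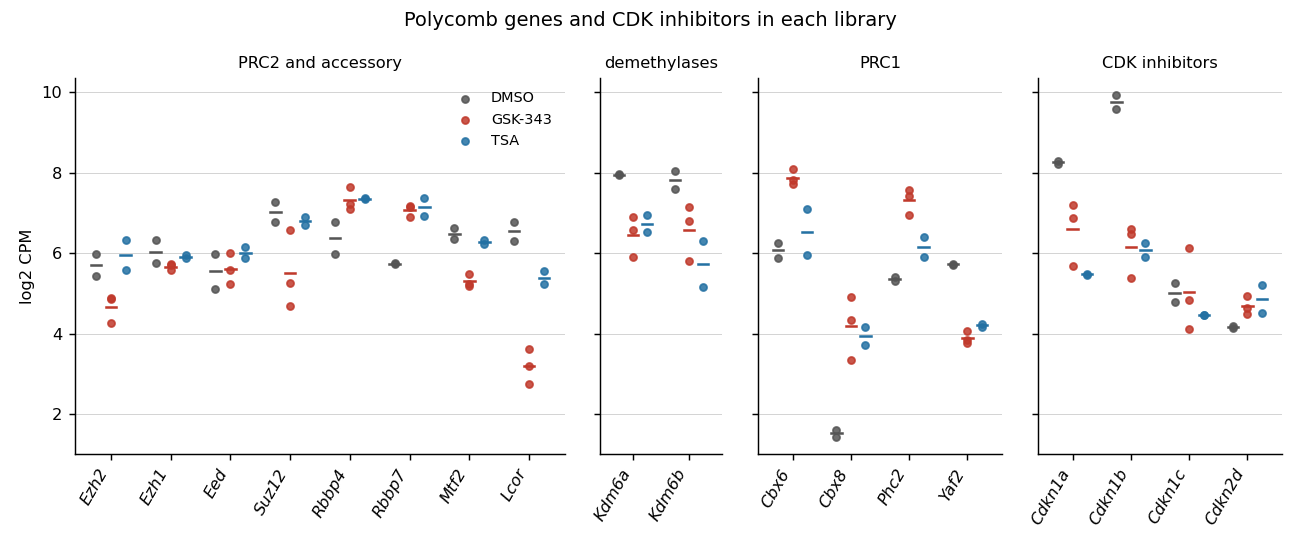
Level of Polycomb genes and cyclin-dependent kinase (CDK) inhibitors in each library, as log2 CPM (vertical axis), with a point for each library and a bar for the group mean. Lcor is low in all 3 GSK-343 libraries against both other groups, Suz12 is spread among the GSK-343 libraries, and Cdkn1b and Cdkn1a lie lower in both treated groups than in DMSO.

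Classical Polycomb targets were near the limit of detection in every group. Of the 39 Hox genes, which pattern the body axis, none had enough counts to be tested, and 38 had no count in any GSK-343 library. The exception was Hoxc13, with 1 count in GSK-343 replicate 3. Counts were more frequent in DMSO, where 7 and 18 Hox genes had any, up to 18 counts for Hoxb6 and 15.03 for Hoxa4 in DMSO replicate 1, and none for either in DMSO replicate 2. Hoxa3 had 15.85 counts in DMSO replicate 2 and none in DMSO replicate 1. A count of 0 in 1 GSK-343 library allows up to 3 counts, or 0.856 to 1.06 CPM, so levels under that limit could not be seen at this depth. The fixed examples Hoxa5, Hoxa9, Hoxb9 and Hoxd9 were among the 38.

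Other developmental regulators were mostly silent too. Of 104 homeobox and patterning genes, 70 had no count in any GSK-343 library, 37 had none in DMSO and 37 none with TSA, and 19 were tested. Of those tested, 2 rose and 5 fell, 2 were higher and 5 lower with the trends removed, and 1 to 3 were higher and 3 to 5 lower with 1 library left out (1 higher without DMSO replicate 1 or GSK-343 replicate 3, 3 lower without DMSO replicate 2). Irx2, an Iroquois homeobox factor, stood at 0 and 0.344 CPM in DMSO and at 9.88, 7.96 and 20.8 CPM with GSK-343, and with 1 count over both DMSO libraries its ratio was 83.2 (95% exact counting interval 14.7 to 3310.0; adjusted p = 0.00356). Emx2, a homeobox factor of the cochlear epithelium, fell from 180.4 and 187 to 62.4, 61.8 and 85.9 CPM (log2 change -1.39, SE 0.33, adjusted p = 0.00581). Pax5 and Alx1 had no count with GSK-343, and 7.68 and 12.4 CPM and 4.72 and 4.82 CPM in DMSO, so against a floor of 3 counts per library Pax5 was at least 10.6-fold lower. The bound for Alx1 was at least 5.06-fold lower. These are low levels of genes not known for supporting cells, in DMSO libraries that also held counts of many olfactory receptor genes, as given above. The part of such reads in these calls was not tested.

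Of the neuronal lineage transcription factors, 12 of 47 were tested, 1 rose and 6 fell, with a median of -1.28. Pou3f3, a POU-domain factor, fell from 618 and 351 to 137, 129 and 139.8 CPM (log2 change -1.84, adjusted p = 8.66e-04; trend-removed -0.98). Ebf1 stood at 1232 and 1079.5 CPM in DMSO and at 563, 481 and 416 CPM with GSK-343 (log2 change -1.25, adjusted p = 0.00416), with a trend-removed value of -0.14 that did not pass. Isl2, a LIM-homeodomain factor of motor and sensory neurons, was the member that rose, from 23.3 and 14.8 to 80.1, 77.7 and 84.5 CPM (log2 change 2.08, adjusted p = 0.00307; trend-removed 1.15). With the trends removed, 3 of these factors were lower and 1 higher, and 3 to 7 with 1 library left out (3 lower without DMSO replicate 1) were lower. Against TSA 1 was lower and 0 higher.

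PRC2 is known to silence CDK inhibitors. Of 7 such genes 4 were tested, 0 rose and 2 fell. Cdkn2a, the Ink4a/Arf locus, had no count in the 3 GSK-343 libraries or in DMSO, and Cdkn2b stood at 0 and 1.03 CPM in DMSO and at 0, 0 and 2.28 CPM with GSK-343, too low to test. Cdkn1b, the p27 protein that keeps supporting cells out of the cell cycle, fell in every GSK-343 library, from 967 and 767 to 95.9, 88.7 and 41.4 CPM (log2 change -3.53, SE 0.37, adjusted p = 5.58e-05; trend-removed -2.86). Cdkn1a, the p21 protein induced by p53, fell from 299 and 312 to 51.1, 117 and 147 CPM (log2 change -1.53, SE 0.39, adjusted p = 0.0079; trend-removed -2.51). Both lay well below DMSO with TSA as well (76.1 and 59.1 CPM for Cdkn1b, 44.4 and 43.7 CPM for Cdkn1a), and neither differed from TSA at an adjusted p under 0.05 (log2 changes 0.15 and 1.26, adjusted p = 0.823 and 0.0654). Cdkn1c, the imprinted p57 gene, overlapped between the groups and stood at 26.9 and 37.9 CPM in DMSO and at 28.2, 16.8 and 69.9 CPM with GSK-343 (adjusted p = 0.757).

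The label of the cells was checked against markers. Among the supporting cell markers, Sox2, Sox9, Lfng, Fgfr3 and Gjb2 were detected in every library at 181 CPM or more in DMSO and GSK-343. These were picked with their values in view, and presence does not show that a level was unchanged. S100a1, higher with GSK-343, and Prox1, lower, are also such markers and are described below. Sox2, the progenitor factor kept by supporting cells, stood at 247 and 239.7 CPM in DMSO and at 181, 207 and 183 CPM with GSK-343 and did not pass the test (log2 change -0.35, adjusted p = 0.351; trend-removed -0.86, adjusted p = 0.0181). Hey1, a Notch effector, was at 1297 and 1008 CPM in DMSO and at 955, 843 and 784 CPM with GSK-343 (log2 change -0.42, adjusted p = 0.292; trend-removed -0.98, adjusted p = 0.0152). Hes5, a Notch effector that represses Atoh1, was higher in all 3 GSK-343 libraries, at 813, 962 and 677 CPM against 472 and 397 CPM (log2 change 0.91, SE 0.30, adjusted p = 0.028). Its trend-removed value was 0.15 (adjusted p = 0.763), and the call was lost without DMSO replicate 1 or 2 (1.06 and 0.81) or GSK-343 replicate 2 (0.75). Lgr5, a receptor of the Wnt pathway that marks supporting cells with progenitor capacity, fell from 552 and 525 to 248, 293 and 175 CPM (log2 change -1.17, adjusted p = 0.0125). Its trend-removed value was -0.42, and the call was lost without either DMSO library or without GSK-343 replicate 3 (-1.12, -1.19 and -0.99). In bulk RNA, fewer cells of a type and less RNA per cell cannot be told apart.

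Of 50 supporting cell genes tested, 8 rose and 16 fell relative to DMSO (median -0.16). Of them, 8 were higher and 15 lower with the trends removed, and 4 to 10 were higher and 11 to 17 lower with 1 library left out (4 higher without DMSO replicate 1, 5 higher without DMSO replicate 2). Relative to TSA the balance was the other way, with 16 higher and 2 lower (median 0.81). TSA itself against DMSO gave 2 higher and 23 lower (median -1.11), beside 13.2% and 14.3% of all genes tested. Among those that rose with GSK-343 relative to DMSO was S100a1, which encodes a calcium-binding protein, from 848 and 603 to 4391, 8857 and 9688 CPM (log2 change 3.40, SE 0.42, adjusted p = 1.21e-04). Anxa5, a phospholipid-binding annexin, rose from 893 and 723 to 4108, 4101 and 4371 CPM (log2 change 2.38, SE 0.31, adjusted p = 1.74e-04). Both stood between DMSO and GSK-343 with TSA (1595 and 1579 CPM for S100a1, 2020.5 and 1718 CPM for Anxa5). Among those that fell were Otogl, a protein of the tectorial membrane, from 769 and 572 to 43.7, 50.8 and 43.4 CPM (log2 change -3.87, SE 0.34, adjusted p = 1.62e-05; trend-removed -2.21). Spry2, a feedback inhibitor of FGF signalling, fell from 255 and 309.9 to 52.9, 35.5 and 34.2 CPM (log2 change -2.79, SE 0.33, adjusted p = 9.80e-05). Prox1, a homeobox factor of pillar and Deiters' cells, fell from 2337 and 1687 to 776, 341 and 342 CPM (log2 change -2.05, adjusted p = 0.00177; trend-removed -0.72, adjusted p = 0.102).

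The greater epithelial ridge is the epithelium medial to the organ of Corti. Of 16 of its genes tested, 8 rose and 2 fell (median 0.79). Of them, 7 were higher and 1 lower with the trends removed, and 6 to 8 were higher and 1 to 3 lower with 1 library left out (1 lower without DMSO replicate 1 or 2 or GSK-343 replicate 2 or 3). Clu, the secreted chaperone clusterin, stood at 541 and 442 CPM in DMSO and at 2336, 2444 and 3628 CPM with GSK-343 (log2 change 2.51, SE 0.34, adjusted p = 2.19e-04; trend-removed 1.58). The protease inhibitor gene Cst3 stood at 121 and 86.4 CPM in DMSO and at 878, 512 and 759 CPM with GSK-343 (log2 change 2.78, SE 0.38, adjusted p = 2.00e-04). Rorb, a nuclear receptor, went down, from 279.6 and 274 to 69.5, 45.3 and 33.4 CPM (log2 change -2.49, adjusted p = 3.05e-04; trend-removed -1.02). Calb1 and Smpx, which hair cells also express, rose by 4.35 and 4.23 (adjusted p = 0.00255 and 0.00239), but GSK-343 replicate 2 stood apart for both, with 20.2 CPM of Calb1 against 162 and 200 CPM, and 59.7 CPM of Smpx against 222 CPM in each of the others.

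Several hair cell genes were higher with GSK-343 than in DMSO, from a low level. Atoh1, the master transcription factor of hair cells, stood at 7.38 and 8.26 CPM in DMSO and at 43.7, 48.6 and 48.5 CPM with GSK-343 (log2 change 2.58, SE 0.59, adjusted p = 0.00449). Pou4f3, its target needed for hair cell survival, was at 3.84 and 16.5 CPM in DMSO and at 264, 92.4 and 369 CPM with GSK-343 (log2 change 4.58, SE 0.88, adjusted p = 0.00179). The homeobox factor Barhl1 was at 0.886 and 1.03 CPM in DMSO and at 12, 19 and 55.9 CPM with GSK-343 (log2 change 4.87, SE 1.04, adjusted p = 0.00323). The GSK-343 libraries were tight for Atoh1 and spread for Pou4f3, with no overlap with DMSO for any of these genes. Calb2, the calcium buffer calretinin, stood at 2.95 and 1.38 CPM in DMSO and at 31, 26.3 and 77.6 CPM with GSK-343 (log2 change 4.33, adjusted p = 0.0014). Clrn1, the Usher syndrome protein clarin-1, stood at 1.77 and 2.75 CPM in DMSO and at 45.9, 19.9 and 125 CPM with GSK-343 (4.80, adjusted p = 0.00304). Stard10, a lipid transfer protein, stood at 39.6 and 15.5 CPM in DMSO and at 174, 199 and 279.6 CPM with GSK-343 (2.98, adjusted p = 0.00115). The hair bundle gene Grxcr2 stood at 2.95 and 0 CPM in DMSO and at 46.9, 34.6 and 59.4 CPM with GSK-343 (log2 change 4.89, adjusted p = 0.00402), and its fitted value was 10.15 without DMSO replicate 1, which leaves a DMSO library with no count.

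Of 25 hair cell regulators tested, 7 rose and 4 fell (median 0.23, which became -0.02 relative to all genes with the trends removed and -0.11 with the replicate number as a block). Of these regulators, 7 were higher and 2 lower with the trends removed, and 4 to 7 were higher and 2 to 5 lower with 1 library left out (4 higher without DMSO replicate 2, 2 lower without DMSO replicate 1). Of 68 hair cell function genes 16 rose and 3 fell (23.5% and 4.41%, median 0.74), beside 17.8% and 19.7% of all genes tested. Pou4f3 and Gfi1 are in both lists. Of the function genes, 15 were higher and 5 lower with the trends removed, and 10 to 19 were higher and 2 to 5 lower with 1 library left out (10 higher without DMSO replicate 1, 5 lower without GSK-343 replicate 1 or TSA replicate 2). The regulators that fell, such as Rfx3 (210.2 and 178 to 27.2, 30.6 and 39.9 CPM, log2 change -2.57, adjusted p = 1.66e-04) and Rfx7 (302 and 231 to 93.5, 74.7 and 70.8 CPM, -1.75, adjusted p = 0.00111), are regulatory factor X genes with long AT-rich transcripts, and their trend-removed values were -0.72 and -0.36, which did not pass. Adgrv1, whose large receptor connects stereocilia at their base, fell from 133 and 58.2 to 29.98, 30.3 and 19.97 CPM (log2 change -1.84, adjusted p = 0.00366), a call lost without DMSO replicate 1 (-1.10). Against TSA, 2 function genes were higher and 5 lower with GSK-343, and Atoh1, Pou4f3 and Barhl1 did not differ at an adjusted p under 0.05 (log2 changes 0.35, -0.46 and 0.03, adjusted p = 0.698, 0.692 and 0.994). With TSA against DMSO, 23 function genes were higher and 2 lower.

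**Figure D3:**
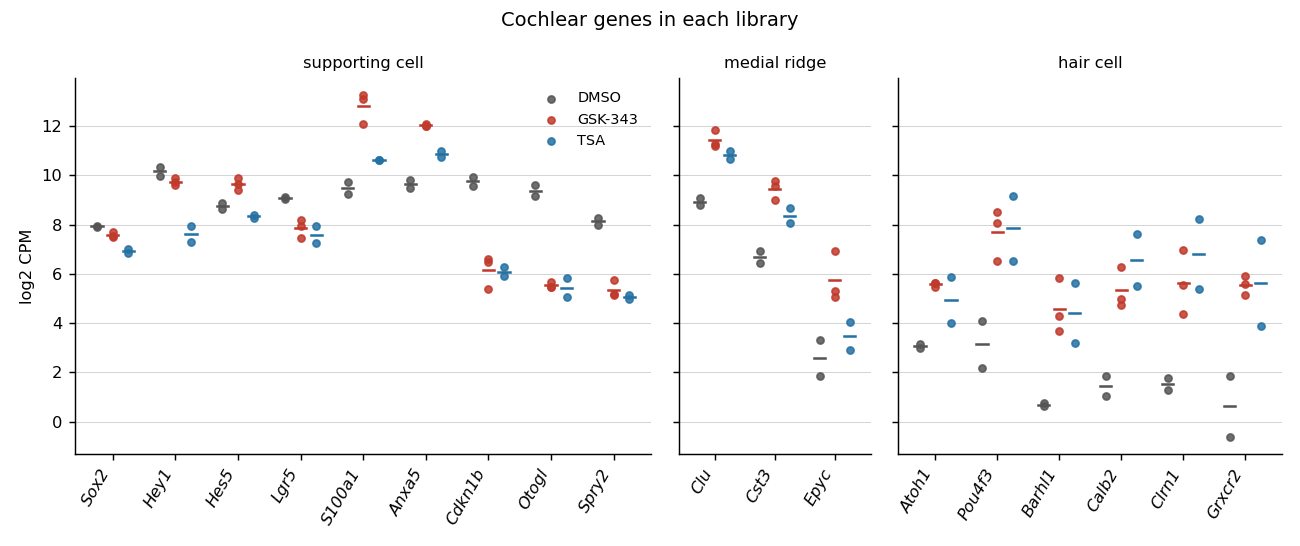
Level of cochlear genes in each library, as log2 CPM (vertical axis), with a point for each library and a bar for the group mean. The hair cell genes lie low in both DMSO libraries and higher in the treated libraries, with a wide spread, whereas Otogl, Spry2 and Cdkn1b lie highest in DMSO and S100a1 and Anxa5 highest with GSK-343.

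Markers of other cell types were summed in each library. Neuron markers summed to 2246 and 2342 CPM in DMSO and 2569.6 to 2898 CPM with GSK-343, and of 40 tested 9 rose and 11 fell. The sum includes Uchl1, which rose from log2 CPM 7.44 and 7.70 to 9.48, 10.26 and 10.08, whereas the median log2 change of the list was -0.47. Against TSA, 2 neuron markers were higher and 14 lower (median -1.75), beside 5.72% and 5.85% of all genes tested. With TSA against DMSO, 13 were higher and 2 lower (median 1.425). Of the neuron markers, 7 were higher and 8 lower with the trends removed, and 5 to 9 were higher and 6 to 9 lower with 1 library left out (5 higher without DMSO replicate 2, 6 lower without DMSO replicate 1 or 2). Stmn2, which regulates microtubules in neurons, was measured at 18.3 and 17.6 CPM in DMSO and at 2.47, 3.98 and 2.28 CPM with GSK-343 (log2 change -2.61, adjusted p = 7.52e-04). Scg5, a chaperone of secretory granules, stood at 1.48 and 1.72 CPM in DMSO and at 46.6, 34.9 and 45.7 CPM with GSK-343 (4.70, adjusted p = 4.71e-05). On the log2 CPM scale, Stmn2 stood at 1.55 to 2.21 with GSK-343 and at 7.13 and 6.96 with TSA. Scg5 stood at 5.15 to 5.56 with GSK-343 and at 7.45 and 7.77 with TSA. Schwann cell and glia markers summed to 1093 and 1241 CPM in DMSO and 890.0 to 1432 CPM with GSK-343, with 3 of 13 higher and 3 lower (3 to 4 and 2 to 3 with 1 library left out, 4 and 3 with the trends removed). Mesenchyme markers summed to 377 and 399 CPM in DMSO and 272 to 451 CPM with the inhibitor, with 0 of 13 higher and 1 lower. The myelin gene Mbp of the Schwann cell and glia list rose from 3.54 and 7.92 to 59.96, 30.3 and 61.9 CPM (log2 change 3.15, SE 0.57, adjusted p = 0.00131). Fabp7 of that list went the other way, from log2 CPM 8.64 and 8.71 to 6.34, 5.39 and 5.63. Ngfr did so too, from 7.25 and 7.04 to 4.89, 5.95 and 4.50. Endothelial markers summed to 51.1 and 60.9 CPM in DMSO and 12.3 to 18 CPM with GSK-343. Macrophage and blood markers summed to 36.6 and 56.8 CPM in DMSO and 6.73 to 47.1 CPM with the inhibitor. Melanocyte and stria markers summed to 1077 and 1153 CPM in DMSO and 364 to 656 CPM with the inhibitor. Most of this sum in DMSO was Atp1b2, at log2 CPM 9.30 and 9.27 in DMSO and 6.77, 8.30 and 8.22 with GSK-343. The melanocyte gene Pmel went the other way, from log2 CPM -0.07 and 2.45 to 3.53, 4.56 and 4.28. Of the tested markers 2 of 5 endothelial, 1 of 6 macrophage and 3 of 8 melanocyte or stria genes fell, and 0, 0 and 2 rose. With 1 library left out, 1 to 2 endothelial, 0 to 1 macrophage and 0 to 2 melanocyte or stria genes were lower, and 0 to 2 of the last were higher. The smallest counts came without DMSO replicate 2 for all 3 falls, also without DMSO replicate 1 for the macrophage and melanocyte lists, and without either DMSO replicate 1 or GSK-343 replicate 3 for the rise. The melanocyte gene Tyrp1 and the globin gene Hba-a1 had no count in the DMSO and GSK-343 libraries, and the endothelial receptor gene Kdr had none with GSK-343. Other members were present. On the log2 CPM scale, Csf1r of macrophages stood at 1.09 and 2.54 in DMSO and at 3.30, -0.61 and 3.29 with GSK-343. Endothelial Egfl7 stood at 1.28 and 2.98 in DMSO and at 3.07, 3.47 and 3.01 with GSK-343. The red cell gene Alas2 stood at 2.07 and 2.70 in DMSO and at -0.61, 0.91 and 0.29 with GSK-343. The part of other cell types in the changes above was not tested.

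Signalling genes were compared by pathway. Of 40 Wnt genes tested, 17 fell and 4 rose (median -0.81). Of them, 14 were lower and 2 higher with the trends removed, and 12 to 18 were lower and 1 to 4 higher with 1 library left out (1 higher without DMSO replicate 1). The transcription factor Tcf7l2 fell from 389 and 434 to 47.6, 97.3 and 71.9 CPM (log2 change -2.51, SE 0.35, adjusted p = 2.53e-04). Znrf3, a ubiquitin ligase that removes Frizzled receptors and limits the pathway, fell from 155 and 265 to 42.3, 40.1 and 32.8 CPM (log2 change -2.45, SE 0.36, adjusted p = 3.10e-04). The co-receptor Lrp6 (-2.15) and the receptor Fzd3 (-2.50) also fell (adjusted p = 3.42e-04 and 4.81e-04), with trend-removed values of -0.71, which did not pass, and -1.25. The members that fell thus include activators and inhibitors of the pathway, and against TSA 0 were lower and 5 higher. With TSA against DMSO, 1 Wnt gene was higher and 16 were lower (median -1.21). Of 37 Notch genes, 5 rose and 6 fell, 5 were higher and 4 lower with the trends removed, and 3 to 5 were higher and 2 to 7 lower with 1 library left out (3 higher without DMSO replicate 1 or 2 or GSK-343 replicate 2, 2 lower without DMSO replicate 1). Against TSA, 9 Notch genes were higher and 1 lower (median 0.56). With TSA against DMSO, 5 were higher and 8 lower (median -0.43). The ligand Jag2, which hair cells express, rose from 10.6 and 11 to 70.2, 43.8 and 93.6 CPM (log2 change 2.67, SE 0.63, adjusted p = 0.00549). The gamma-secretase subunit Aph1a rose from 15.6 and 36.8 to 146, 175 and 234 CPM (log2 change 2.82, SE 0.44, adjusted p = 4.89e-04). Hes1, a Notch effector, fell from 93.9 and 69.9 to 33.5, 20.5 and 19.97 CPM (log2 change -1.73, adjusted p = 0.00567). The supporting cell ligand Jag1 fell from 2036 and 1333 to 801, 629 and 536 CPM (-1.36, adjusted p = 0.00444; trend-removed -0.76). Both calls were lost without DMSO replicate 1 (-1.48 for Hes1, -1.003 for Jag1).

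Of 34 BMP and TGF-beta genes, 4 rose and 10 fell. Of them, 5 were higher and 4 lower with the trends removed, and 3 to 5 were higher and 4 to 10 lower with 1 library left out (4 lower without DMSO replicate 1, 5 lower without DMSO replicate 2). Inhba, a subunit of the ligand activin A, fell from 465 and 881 to 108, 87.5 and 53.9 CPM (log2 change -3.02, SE 0.41, adjusted p = 2.20e-04), and stood at 41.1 and 19.104 CPM with TSA. Id1, a target of BMP signalling, rose from 79.7 and 103 to 523, 307 and 344 CPM (log2 change 2.10, SE 0.38, adjusted p = 0.00117). The signal transducer Smad3 rose from 2.36 and 3.1 to 34.6, 34.3 and 23.4 CPM (log2 change 3.48, SE 0.59, adjusted p = 8.14e-04). Of 22 FGF genes, 2 rose and 4 fell, 3 were higher and 5 lower with the trends removed, and 2 to 4 were higher and 2 to 4 lower with 1 library left out (4 higher without DMSO replicate 2, 2 lower without DMSO replicate 1). The adaptor Frs2 fell from 167 and 148 to 27.2, 22 and 17.4 CPM (log2 change -2.83, SE 0.36, adjusted p = 1.51e-04; trend-removed -1.74). Dusp6, a phosphatase induced by FGF signalling through ERK, rose from 111 and 102 to 749, 281 and 237 CPM (log2 change 1.99, SE 0.46, adjusted p = 0.00509), with a value of 1.28 without GSK-343 replicate 1.

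Cell cycle genes were compared by phase. Of 36 S phase genes tested, 3 rose and 2 fell. Of 24 genes of G2 and M phase, 1 rose and 8 fell (median -1.66, and -0.68 with the trends removed). With limma, 2 of 18 genes of G2 and M phase were higher and 1 lower. Of the S phase genes, 2 were higher and 2 lower with the trends removed, and 2 to 3 were higher and 1 to 3 lower with 1 library left out (1 lower without DMSO replicate 1 or 2 or GSK-343 replicate 3). Of the genes of G2 and M phase, 5 were lower with the trends removed and 4 to 8 with 1 library left out (4 lower without DMSO replicate 1 or 2, 5 lower without GSK-343 replicate 2 or 3). Mki67, the antigen of dividing cells, stood at 13.6 and 10.7 CPM in DMSO and at 1.06, 0.918 and 0.285 CPM with GSK-343 (log2 change -3.96, SE 0.90, adjusted p = 0.00438; trend-removed -2.36). The kinesin Cenpe stood at 26.9 and 36.8 CPM in DMSO and at 2.82, 3.98 and 2.85 CPM with GSK-343 (log2 change -3.29, SE 0.71, adjusted p = 0.00329). Ccne1, the cyclin of S phase entry, rose from 0.591 and 2.75 to 13.4, 12.5 and 16.6 CPM (log2 change 3.09, SE 0.62, adjusted p = 0.00225), below the 90.6 and 99.9 CPM with TSA (log2 change -2.74 of GSK-343 against TSA, adjusted p = 0.00706). E2f1, the transcription factor of S phase genes, had no count in DMSO and 2.47, 4.9 and 4.28 CPM with GSK-343, at least 4.05-fold higher against the floor (adjusted p = 0.00703).

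Of the ribosomal protein genes, 37 of 63 tested rose and 5 fell (median 1.31). Of them, 40 were higher and 5 lower with the trends removed, and 26 to 40 were higher and 2 to 5 lower with 1 library left out (2 lower without DMSO replicate 1, 3 lower without GSK-343 replicate 1 or 2). Against TSA, 17 were higher and 0 lower. Rpl27 rose from 34.2 and 21 to 2528, 1669 and 2394 CPM (log2 change 6.31, SE 0.44, adjusted p = 3.15e-06). Fau, which encodes a ubiquitin-like protein fused to a protein of the small ribosomal subunit, rose from 15.6 and 26.5 to 154, 318 and 300.2 CPM (log2 change 3.61, SE 0.45, adjusted p = 1.27e-04). Rpl39 fell from 239 and 209 to 6.35, 14.7 and 12.6 CPM (log2 change -4.31, SE 0.45, adjusted p = 5.05e-05). These genes have many processed pseudogenes, and none of the 63 had whole expected counts in every library, so single values are uncertain. Pseudogenes held 0.557% to 0.91% of all counts with GSK-343, against 1.43% and 1.49% in DMSO. Of 64 nuclear genes of oxidative phosphorylation, 21 rose and 9 fell, 20 were higher and 8 lower with the trends removed, and 12 to 21 were higher and 4 to 8 lower with 1 library left out (12 higher without DMSO replicate 1, 4 lower without DMSO replicate 1 or 2). The risers included the cytochrome oxidase subunit Cox4i1 (68.8 and 56.1 to 592, 703 and 993 CPM, log2 change 3.61, adjusted p = 4.76e-05) and the complex III subunit Uqcrc1 (10.6 and 22 to 69.8, 134 and 129 CPM, 2.77, adjusted p = 7.94e-04). Of 22 glycolysis genes, 7 rose and 2 fell (median 0.56, and 0.097 relative to all genes with the trends removed). Of them, 4 were higher and 3 lower with the trends removed, and 4 to 8 were higher and 0 to 2 lower with 1 library left out (4 higher without DMSO replicate 2, 0 lower without DMSO replicate 1, 1 lower without DMSO replicate 2 or GSK-343 replicate 1 or 3). The triose isomerase Tpi1 rose from 12.1 and 11.4 to 88.9, 133 and 87.3 CPM (log2 change 3.13, SE 0.42, adjusted p = 1.88e-04). The glucose transporter Slc2a1 fell from 215 and 146 to 59.6, 74.7 and 76.8 CPM (log2 change -1.36, adjusted p = 0.00648), a call lost without DMSO replicate 1 (-1.03). Gapdh, a glycolytic enzyme often taken as a reference, rose by 3.56 (SE 0.39, adjusted p = 5.80e-05; trend-removed 2.87).

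Stress and secretory pathway genes rose in part. Of 38 genes of the ATF4 and unfolded protein responses, 17 rose and 3 fell (median 0.91). Of them, 9 were higher and 5 lower with the trends removed, and 8 to 16 were higher and 3 to 4 lower with 1 library left out (8 higher without GSK-343 replicate 3, 10 higher without DMSO replicate 1 or 2). Manf, a chaperone-associated protein secreted under stress of the endoplasmic reticulum, stood at 98.6 and 94.7 CPM in DMSO and at 984, 969.6 and 1163 CPM with GSK-343 (log2 change 3.43, SE 0.37, adjusted p = 5.95e-05). Psph, an enzyme of serine synthesis, rose from 21.8 and 31.7 to 295, 129 and 169 CPM (log2 change 2.88, SE 0.48, adjusted p = 7.20e-04). The glycyl-tRNA synthetase Gars rose from 23 and 19.97 to 78, 109 and 112 CPM (log2 change 2.21, SE 0.37, adjusted p = 7.53e-04). Hsp90b1, an abundant chaperone of the endoplasmic reticulum, fell instead, from 1782 and 2120.1 to 574, 527 and 632 CPM (log2 change -1.76, SE 0.34, adjusted p = 0.00186). Of 26 cholesterol synthesis genes, 7 rose and 1 fell, 6 were higher and 0 lower with the trends removed, and 3 to 9 were higher and 0 to 1 lower with 1 library left out (3 higher without DMSO replicate 1, 4 higher without GSK-343 replicate 3, 0 lower without DMSO replicate 2). Against TSA, 6 were higher and 0 lower. Srebf2, the transcription factor that drives the pathway, stood at 86.5 and 117 CPM in DMSO and at 354, 359 and 482 CPM with GSK-343 (log2 change 1.97, SE 0.35, adjusted p = 0.00102), and at 157 and 103 CPM with TSA. The sterol reductase Tm7sf2 rose from 22.1 and 10.7 to 116, 112 and 184 CPM (log2 change 3.06, SE 0.47, adjusted p = 4.54e-04).

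Immediate early genes, which tissue dissociation induces, were higher with GSK-343 in 10 of 29 tested cases and lower in 3. Fos stood at 181 and 137 CPM in DMSO and at 1078, 644 and 1030.4 CPM with GSK-343 (log2 change 2.53, SE 0.35, adjusted p = 2.45e-04), and at 879 and 1068 CPM with TSA. Junb stood at 20.4 and 22.4 CPM in DMSO and at 88.2, 166 and 325 CPM with GSK-343 (log2 change 3.17, SE 0.53, adjusted p = 8.15e-04). The median of the list was -0.07, so it lay on the other side of 0 from the balance of calls, and relative to all genes it was 0.46 with the replicate number as a block and 0.43 with limma. With the trends removed the median was -0.41, or -0.496 relative to all genes, with 9 genes higher and 6 lower. Of the list, 7 to 10 were higher and 1 to 5 lower with 1 library left out (1 lower without DMSO replicate 1, 5 lower without TSA replicate 1). Per the labels, all libraries went through 1 dissociation protocol. Of 35 lysosomal genes, 12 rose and 5 fell, 8 were higher and 2 lower with the trends removed, and 6 to 16 were higher and 2 to 5 lower with 1 library left out (6 higher without DMSO replicate 2, 7 higher without DMSO replicate 1, 2 lower without DMSO replicate 1, 3 lower without DMSO replicate 2 or GSK-343 replicate 3). The risers included the beta-glucuronidase Gusb (20.7 and 21.7 to 68.4, 154 and 133 CPM, log2 change 2.48, adjusted p = 8.83e-04) and the saposin precursor Psap (496 and 556 to 1158, 2028 and 1813 CPM, 1.66, adjusted p = 0.00282; trend-removed 1.07). Of 40 epithelial junction genes, 12 rose and 6 fell (median 0.82, but -0.0038 relative to all genes with the trends removed). Of them, 10 were higher and 5 lower with the trends removed, and 7 to 13 were higher and 3 to 8 lower with 1 library left out (7 higher without DMSO replicate 1, 3 lower without DMSO replicate 1 or 2 or GSK-343 replicate 3). Against TSA, 7 were higher and 1 lower, and with TSA against DMSO 1 was higher and 7 were lower. The tight junction gene Cldn7 rose from 18 and 26.2 to 691, 561 and 931 CPM (log2 change 5.04, SE 0.41, adjusted p = 9.02e-06). Cldn6, of the same family, fell from 381 and 456 to 80.1, 153 and 144 CPM (log2 change -1.73, SE 0.33, adjusted p = 0.00177).

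Genes of chromatin and RNA processing were compared by list. Of 22 trithorax and H3K4-modifying genes, which oppose Polycomb, 10 fell and 3 rose. Of them, 6 were lower and 6 higher with the trends removed, and 6 to 10 were lower and 2 to 4 higher with 1 library left out (6 lower without DMSO replicate 1). Kmt2d, an H3K4 methyltransferase of enhancers, fell from 800.5 and 939 to 30.3, 92.7 and 48.5 CPM (log2 change -3.92, SE 0.47, adjusted p = 9.42e-05). Men1, the menin subunit of related complexes, rose from 26.3 and 27.5 to 122, 135 and 149 CPM (log2 change 2.33, SE 0.35, adjusted p = 4.24e-04; trend-removed 1.39). The methylcytosine oxidases Tet1, Tet2 and Tet3 fell by 2.99, 2.40 and 2.04 on the log2 scale (adjusted p = 2.00e-04, 0.00169 and 2.87e-04). The DNA methyltransferase gene Dnmt3a fell from 396 and 479 to 110.0, 81.1 and 65.6 CPM (log2 change -2.35, SE 0.34, adjusted p = 3.23e-04). Trend-removed values were -1.11, -1.66, -1.07 and -1.99, all past the test. Of 42 splicing and RNA-binding genes, 18 fell and 8 rose (median -0.70, and -0.32 with the trends removed). Of them, 13 were lower and 8 higher with the trends removed, and 10 to 18 were lower and 3 to 8 higher with 1 library left out (10 lower without DMSO replicate 2, 11 lower without DMSO replicate 1, 3 higher without DMSO replicate 1, 4 higher without DMSO replicate 2, 5 higher without GSK-343 replicate 2 or 3). Hnrnpa2b1 fell from 1249.8 and 1546 to 250.4, 224 and 169 CPM (log2 change -2.70, SE 0.30, adjusted p = 6.41e-05). Hnrnpc rose from 134 and 113 to 566, 352 and 474 CPM (log2 change 1.91, SE 0.35, adjusted p = 0.0014). Of 20 histone deacetylase and corepressor genes, 2 rose and 4 fell, 2 were higher and 5 lower with the trends removed, and 1 to 4 were higher and 2 to 4 lower with 1 library left out (1 higher without GSK-343 replicate 3, 4 higher without GSK-343 replicate 1, 2 lower without DMSO replicate 2). None of the tested members of the last list and of the DNA methylation list differed from TSA, whereas 5 splicing genes were higher with GSK-343 than with TSA and 0 lower. With TSA against DMSO, 1 splicing gene was higher and 17 were lower.

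Imprinted genes fell in 12 and rose in 5 of 34 tested cases. Of them, 9 were lower and 7 higher with the trends removed, and 5 to 11 were lower and 4 to 6 higher with 1 library left out (5 lower without DMSO replicate 2). They were lower than with TSA in 9 and higher in 3. Peg3, a paternally expressed zinc finger gene, stood at 177 and 142 CPM in DMSO and at 32.1, 26 and 34.8 CPM with GSK-343 (log2 change -2.36, SE 0.33, adjusted p = 2.27e-04; trend-removed -1.001), and at 131 and 115 CPM with TSA (log2 change -1.99 of GSK-343 against TSA, adjusted p = 0.00594). Its neighbour Usp29 stood at 15.4 and 35.8 CPM in DMSO and at 2.12, 0.306 and 0.285 CPM with GSK-343 (log2 change -4.83, SE 0.84, adjusted p = 9.92e-04), and at 19.126 and 29 CPM with TSA (-4.74, adjusted p = 0.00759). Rtl1, the retrotransposon-like gene of the Dlk1 cluster, had no count with GSK-343 and 3.84 and 17.2 CPM in DMSO, at least 11.2-fold lower against the floor, and 8.66 and 8.08 CPM with TSA. For these 3 genes the GSK-343 libraries were low against the libraries of both other groups, with no overlap. Peg12 went up, from 0 and 0.689 to 39.9, 18.4 and 13.4 CPM, a ratio of 72 (95% exact counting interval 19.7 to 598) over 2 counts in DMSO (adjusted p = 0.00137); its fitted value was 9.21 without DMSO replicate 2, which leaves a DMSO library with 0 counts.

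**Figure D4:**
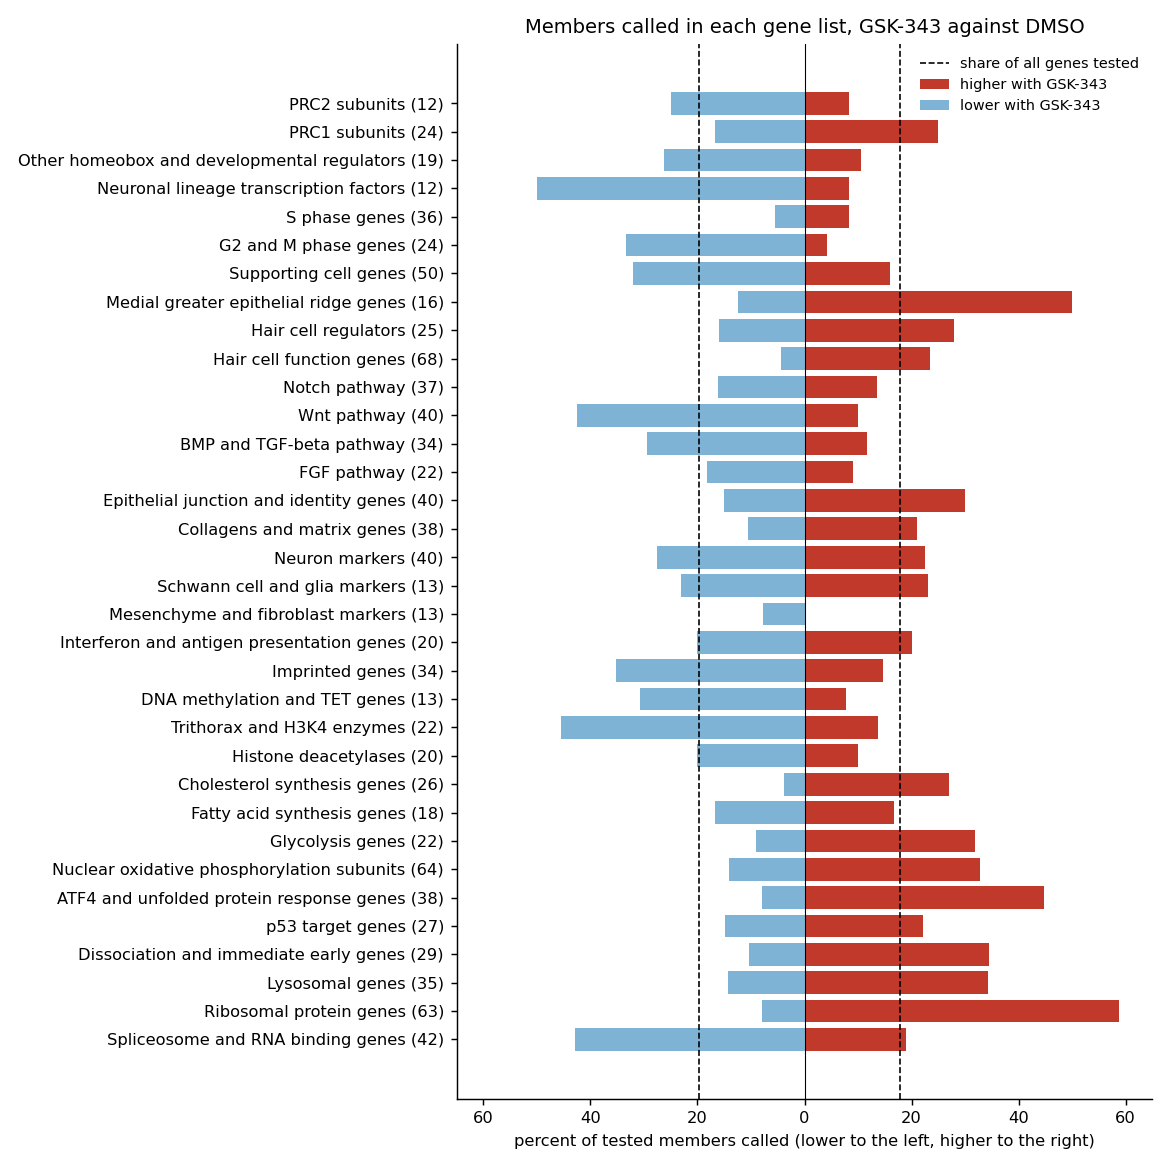
Percent of the tested members of each gene list (number in brackets; lists with at least 10) called higher (right) or lower (left) with GSK-343 than in DMSO at an adjusted p under 0.05. Dashed lines mark the 17.8% and 19.7% of all genes called; the ribosomal proteins reach 58.7% higher and the neuronal transcription factors 50.0% lower.

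By a fixed rule, the 12 largest rises and falls among well-expressed genes that passed the test with and without the trends were taken. The largest rise was that of Hsd3b7, an enzyme of bile acid synthesis from cholesterol, which had no count in DMSO and stood at 58.6, 50.2 and 62.2 CPM with GSK-343 and 9.74 and 15.1 CPM with TSA, at least 59.4-fold higher than the DMSO floor (adjusted p = 4.71e-05). It was 2.20 above TSA on the log2 scale (adjusted p = 0.0201). H1fx, a linker histone, had 3 counts in DMSO and 425 with GSK-343, a ratio of 92.8 (95% exact counting interval 31.5 to 452; adjusted p = 9.85e-05). Next came Rpl27, described above. Cln6, a protein of the endoplasmic reticulum mutated in a neuronal storage disease, rose from 2.66 and 0.344 to 82.2, 86 and 162 CPM (log2 change 6.10, SE 0.76, adjusted p = 1.23e-04). The riboflavin transporter Slc52a3 rose from 0.886 and 1.72 to 71.2, 36.4 and 134 CPM (log2 change 5.93, SE 0.85, adjusted p = 2.91e-04). The transport factor Yif1a rose from 6.2 and 3.44 to 143, 141 and 226 CPM (log2 change 5.12, SE 0.47, adjusted p = 2.58e-05). Crtap, a collagen-modifying protein, rose from 4.72 and 3.44 to 135, 161 and 119 CPM (log2 change 5.06, SE 0.46, adjusted p = 2.45e-05), and was also above TSA (2.02, adjusted p = 0.00888). The others were Dhrs7, Cldn7, Zfp954, the CDK-activating phosphatase gene Cdc25b, and Grxcr2, with log2 changes of 5.07, 5.04, 4.95, 4.90 and 4.89. Of the 12, those also above TSA at an adjusted p under 0.05 were Hsd3b7, H1fx, Rpl27, Crtap and Cldn7.

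The largest fall was that of Muc6, a secreted gastric mucin, from 262 and 315 to 0.705, 1.84 and 0 CPM (log2 change -8.36, SE 0.69, adjusted p = 1.12e-05). Lmbrd2, a membrane protein, fell from 109 and 106 to 0.353, 3.06 and 0.571 CPM (log2 change -6.27, SE 0.70, adjusted p = 6.77e-05). Mid1, a microtubule-associated ubiquitin ligase, fell from 1569.9 and 1542 to 18.7, 33.7 and 30.8 CPM (log2 change -5.81, SE 0.37, adjusted p = 3.03e-06). Utp14b, an intronless retrogene inside Acsl3, fell from 1072 and 1128 to 13.4, 21.4 and 29.4 CPM (log2 change -5.67, SE 0.38, adjusted p = 3.15e-06). For Lmbrd2, Mid1 and Utp14b both DMSO libraries stood far above every GSK-343 library. Zbed6, an intronless factor inside Zc3h11a, fell from 125 and 113 to 0, 6.43 and 0 CPM (log2 change -5.75, SE 0.97, adjusted p = 8.09e-04), and its fitted value was -11.49 without GSK-343 replicate 2, the only GSK-343 library with a count. The others were Shisal2b (-5.74), Ccbe1 (-5.51), Hmgn5 (-5.41), Zbtb37 (-5.09), Plag1 (-4.94), Lnpep (-4.81) and Lrrtm4 (-4.78). Trend-removed values lay closest to 0 for Zbtb37 (-2.68), which overlaps the host gene Gas5, and Lnpep (-3.26). Of the 12 falls, those also lower than with TSA at an adjusted p under 0.05 were Utp14b (-1.59, adjusted p = 0.0152) and Lrrtm4 (-2.10, adjusted p = 0.0424). The strand of the counts is not given in the sources used here, so reads of Mid1, Zbed6, Utp14b, Zbtb37, Lmbrd2, Kdm6b, and of the risers Hsd3b7, H1fx, Yif1a and Cdc25b, cannot be told from those of genes overlapping them.

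To name genes set apart in the GSK-343 libraries, those were taken that passed the test in the same direction against DMSO, also with the trends removed, and against TSA, with all 3 GSK-343 libraries outside the range of the other 4 and TSA within 2-fold of DMSO. This rule was chosen after the values were seen, both comparisons use the same GSK-343 libraries, and the values are given as a description; of the pair of log2 changes the first is against DMSO and the second against TSA. Tfap4, a helix-loop-helix factor that targets cell cycle genes, stood at 52.2, 18.1 and 31.4 CPM with GSK-343, 2.36 and 0.689 CPM in DMSO and 2.53 and 2.2 CPM with TSA (log2 changes 4.41 and 3.82; adjusted p = 0.00146 and 0.0127). Swsap1, a protein of homologous recombination, stood at 178, 40.4 and 56.8 CPM with GSK-343, 7.38 and 7.58 CPM in DMSO and 8.66 and 7.71 CPM with TSA (log2 changes 3.61 and 3.48; adjusted p = 0.00128 and 0.00918), with GSK-343 replicate 1 well above the others. The transporter gene Abcc12 stood at 79.7, 56.9 and 37.1 CPM with GSK-343, 5.91 and 5.17 CPM in DMSO and 5.41 and 2.57 CPM with TSA (log2 changes 3.37 and 3.84; adjusted p = 9.73e-04 and 0.00534). The DMSO and TSA libraries held few counts of any of these 3 genes. Nme3, a nucleoside diphosphate kinase, stood at 290.3, 159.7 and 223 CPM with GSK-343, 27.8 and 21 CPM in DMSO and 40.8 and 7.35 CPM with TSA (log2 changes 3.20 and 3.22; adjusted p = 0.00141 and 0.00869). Smim3, a small membrane protein, stood at 227, 212 and 361 CPM with GSK-343, 44 and 34.1 CPM in DMSO and 43.7 and 20.9 CPM with TSA (log2 changes 2.77 and 3.04; adjusted p = 4.64e-04 and 0.00357). Tmem189, an enzyme of plasmalogen synthesis, stood at 1014, 816 and 1019.5 CPM with GSK-343, 103 and 122 CPM in DMSO and 192 and 128 CPM with TSA (log2 changes 3.08 and 2.57; adjusted p = 6.41e-05 and 0.00305). The other names at the top of the rising side included Bcl7b, of the SWI/SNF remodelling complex (2.69 and 2.92), and Fshb, the follicle-stimulating hormone subunit (2.64 and 3.43).

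On the falling side, Cald1, the actin-binding caldesmon, stood at 7.41, 4.9 and 3.14 CPM with GSK-343, 41.9 and 75.4 CPM in DMSO and 36.1 and 24.6 CPM with TSA (log2 changes -3.51 and -2.56; adjusted p = 4.11e-04 and 0.0122). Fanca, of the Fanconi anaemia pathway of DNA repair, stood at 2.82, 4.9 and 3.99 CPM with GSK-343, 17.1 and 40.6 CPM in DMSO and 26.3 and 20.2 CPM with TSA (log2 changes -2.87 and -2.56; adjusted p = 0.00312 and 0.021). The cilium genes Cfap54 and Ift74 were low in each GSK-343 library. Cfap54 stood at 7.76, 3.06 and 4.57 CPM with GSK-343, 34.2 and 18.6 CPM in DMSO and 54.5 and 47.8 CPM with TSA (log2 changes -2.37 and -3.32; adjusted p = 0.00468 and 0.00594). Its trend-removed value against DMSO was -1.52. Ift74 stood at 4.59, 3.37 and 5.42 CPM with GSK-343, 22.7 and 19.6 CPM in DMSO and 24.5 and 38.9 CPM with TSA (log2 changes -2.24 and -2.82; adjusted p = 0.00752 and 0.0113). Fnip2, a folliculin-interacting protein of nutrient signalling, stood at 7.41, 6.43 and 5.99 CPM with GSK-343, 40.2 and 52.7 CPM in DMSO and 32.1 and 25.7 CPM with TSA (log2 changes -2.81 and -2.13; adjusted p = 8.36e-04 and 0.0167). The calcium channel subunit Cacna2d2 stood at 5.29, 2.75 and 5.71 CPM with GSK-343, 28.6 and 24.4 CPM in DMSO and 22 and 16.9 CPM with TSA (log2 changes -2.52 and -2.08; adjusted p = 0.00527 and 0.0393). With limma, Cfap54, Ift74, Fnip2 and Cacna2d2 lost their calls against DMSO (adjusted p = 0.111, 0.208, 0.182 and 0.184). The levels of all of these genes with GSK-343 rest on small counts.

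**Figure D5:**
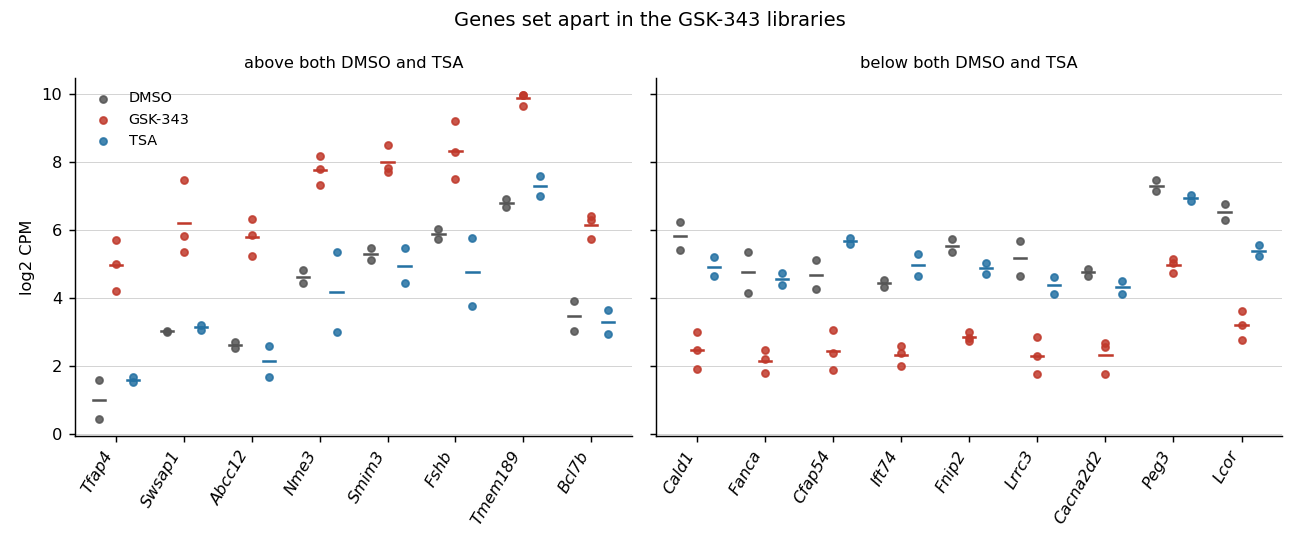
Genes that differ in the GSK-343 libraries from both other groups, as log2 CPM (vertical axis) with a point for each library and a bar for the group mean. The 3 GSK-343 points lie above all DMSO and TSA points in the left panel and below them in the right panel.

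PRC2 binds CpG-rich promoters, so the 250 bases before the annotated start of each gene were read from RefSeq (GRCm38.p6), where 10260 tested genes (78.6%) had an entry. 3 promoters are printed, 5′ to 3′ with each CpG in capitals: that of Hsd3b7, the largest riser, and, chosen after their values were seen, those of Atoh1, which rose, and Cdkn1b, which fell. They lie at chr7:127800359-127800608, plus strand, at chr6:64728875-64729124, plus strand and at chr6:134920151-134920400, plus strand.
Hsd3b7: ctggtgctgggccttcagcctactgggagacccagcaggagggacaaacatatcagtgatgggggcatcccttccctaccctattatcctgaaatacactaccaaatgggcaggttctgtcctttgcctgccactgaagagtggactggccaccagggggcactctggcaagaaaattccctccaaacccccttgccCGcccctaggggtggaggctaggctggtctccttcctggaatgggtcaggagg
Atoh1: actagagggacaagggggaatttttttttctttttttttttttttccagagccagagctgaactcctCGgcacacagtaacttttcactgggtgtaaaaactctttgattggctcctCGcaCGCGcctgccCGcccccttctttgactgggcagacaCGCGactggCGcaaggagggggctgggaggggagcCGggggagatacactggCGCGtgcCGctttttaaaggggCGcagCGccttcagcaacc
Cdkn1b: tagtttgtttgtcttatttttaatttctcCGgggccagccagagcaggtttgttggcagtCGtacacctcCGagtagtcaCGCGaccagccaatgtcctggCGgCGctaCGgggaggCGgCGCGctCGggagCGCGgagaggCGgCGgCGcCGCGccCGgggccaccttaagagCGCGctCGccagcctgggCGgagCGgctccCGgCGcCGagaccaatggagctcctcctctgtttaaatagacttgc
The windows hold 1, 14 and 28 CpG in that order, against a median of 16 over all tested genes. The median was 16 for genes called higher and 15 for genes called lower. In the class of 2052 genes with the fewest CpG (0 to 8), 11.7% were higher and 27.8% lower than in DMSO, and in the class with the most (25 to 56) 17.4% and 22.2%. Against TSA the shares were 4.92% higher and 6.97% lower in the former, and 6.09% and 5.8% in the latter. In the classes between these, in order of CpG, 19.4%, 21.8% and 20.2% were higher than in DMSO and 15.9%, 13.55% and 17.8% lower. The share of rises was thus highest in the middle class. The letters TATAAA, searched on both strands, stood in 5% of the windows of genes called higher, 8.36% of those called lower and 6.2% of all, and in none of the 3 printed.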

How the data were processed

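RNA-seq tables of 7 libraries were used, 3 of GSK-343, 2 of DMSO and 2 of trichostatin A (TSA), in groups taken from the treatment labels. The submitters' processing notes name STAR, RSEM, DESeq2 and mm10, without roles or versions. The authors deposited expected counts, which are estimated read numbers per gene and need not be whole, and TPM per gene, per the file headers. Strand, filters and annotation release are not given in the sources used here. Gene identifiers were matched to GENCODE M21, which held 48349 of 48709, and 360 were not matched.

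Expected counts were rounded and tested with edgeR 4.0.16 (TMM factors, filterByExpr, quasi-likelihood F test) in R 4.3.3, all 7 libraries in 1 fit with 4 residual degrees of freedom, over 13050 genes, with Benjamini-Hochberg adjustment and a threshold of 0.05. CPM are counts scaled to the library size with TMM factors. The SE of a log2 fold change was taken from the F statistic. GC content and length trends were removed per library with natural splines of 4 degrees of freedom as an alternative. DESeq2 1.42.0, limma 3.58.1 on log2(TPM + 1), other filters, scalings and gene sets, a replicate block and leaving out each library were the others, and the set of genes with whole counts was chosen after seeing the data. Intervals and floors of 3 counts cover counting error only.

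Named genes were the 12 largest rises and falls past the test with and without the trends, averaging log2 CPM 3 or more, and with groups that did not overlap, up to 5 members of each gene list by adjusted p, and 21 fixed genes. Printed promoters were to be those of the 2 Hox genes and 2 other genes with the largest rises. No Hox gene was tested. The genes set apart from DMSO and TSA, the promoters of Atoh1 and Cdkn1b, Prox1 and the markers named by presence were picked with their values in view. The members and lists were chosen with earlier results of these data known. On simulated counts of 12458 genes for GSK-343 against DMSO, 1.54%, 60.6% and 87.3% of genes changed 2-, 4- and 8-fold were recovered, with 4 false calls. The simulation changed a far smaller share of genes than was called in the data, so these recoveries need not hold for the data. Replicates differed by more than sampling noise (chi-square per degree of freedom 13.6 to 34.0) and correlated at 0.896 to 0.949 on log2 CPM across genes, which are not independent replicates.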

Additional observations from a re-analysis of the deposited data

How the results depend on the processing

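The number of genes called higher with GSK-343 was 1450 to 2397 with 1 library left out, and that called lower 1929 to 2758, with the fewest higher calls without DMSO replicate 1. Genes longer than 2000 bases gave 1661 lower, genes with whole counts in every library 423 higher and 613 lower of 3453 tested, limma on log2(TPM + 1) 4151 higher and 1012 lower, and an adjusted p under 0.01 gave 1265 and 1557. The first 2 settings test fewer genes, and the cause of the limma shift was not tested. With the replicate block 1873 were higher and 1820 lower. The labels do not say whether replicate numbers pair the samples. The correlation of deviations from the group means of DMSO and GSK-343 libraries with the same number was 0.052 and 0.015. With 2 DMSO libraries these deviations mirror each other, so the values cannot decide whether samples were paired. With the block, 14 of 227 named calls were lost. Of these 227, 26 were lost with the GC content and length trends removed, 39 without DMSO replicate 1 and 27 without DMSO replicate 2, and limma lost 47 of the 219 for which it gave a value. Signs turned for Bmpr2 (0.155) and Slc12a2 (0.299) with the trends removed and for Adgrv1 (0.034), Mib1 (0.497) and Atp1b2 (0.025) with limma. With 2 DMSO libraries, a 2-fold change was seldom recovered in simulated counts (1.54%). The simulation changed a far smaller share of genes than the 37.5% called in the data, so this value need not hold for the test made here. Genes that missed that test may still differ.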

Other observations

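Some gene families, picked by the start of their symbols after their values were seen, are given as counts and medians beside the 17.8% and 19.7% of all genes called higher and lower. Of 349 tested zinc finger genes named Zfp, 31 were higher with GSK-343 than in DMSO and 96 lower, with a median log2 fold change of -0.73 that became -0.22 with the GC content and length trends removed. Of 38 Zbtb transcription factor genes, 4 were higher and 17 lower, but 7 and 5 with the trends removed. Genes of the mitochondrial ribosome, which translates the proteins encoded in mitochondria, were higher in 23 and lower in 4 of 77 cases, and 20 and 4 with the trends removed. Proteasome genes named Psm were higher in 13 and lower in 1 of 44 cases, and 13 and 3 with the trends removed. Of 29 RNA polymerase subunit genes 12 were higher and 3 lower, with 9 and 2 after trend removal. Centrosomal genes named Cep were lower in 14 and higher in 2 of 34 cases, with 12 and 3 after trend removal, and 5 were lower and 1 higher than with TSA.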
